A study of Homo sapiens with 24 samples.

Results

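FOXM1, MYBL2 and MYBL1 are 3 transcription factor genes that act late in the cell cycle, and their mRNA was followed in LNCaP cells after siRNA against either of 2 long non-coding RNAs. LNCaP is an established prostate cancer line derived from a lymph node metastasis. The members were found by probe: every probe whose RefSeq accession belongs to one of these genes was taken, which gave 4 probes on each array version. They are 3 of 20992 genes named through RefSeq on the 24 h arrays and 3 of 22439 on the 48 h arrays. FOXM1 and MYBL2 had 1 probe each and MYBL1 had 2. The cells received a scrambled control duplex (si-SCRL), an siRNA against TAPIR-1 (si-A1) or an siRNA against TAPIR-2 (si-A2), all by electroporation with the NEON system, with 4 biological replicates of each at 24 h and at 48 h. All groups are the same line in the same medium. Only 1 siRNA per target was put on arrays, so an effect of the target and an effect of that duplex cannot be told apart. The 48 h array of si-A2 replicate 2 was dim and was left out, which leaves 3 si-A2 arrays at that time.

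FOXM1 is a forkhead transcription factor that switches on genes of the G2 phase and mitosis. MYBL2 encodes B-MYB, which joins the MuvB core and, with FOXM1 recruited later, drives the same late genes. In resting or arrested cells the MuvB core instead binds the pocket proteins p107 and p130 with E2F4 or E2F5, forming the repressive DREAM complex. MYBL2 is itself a target of E2F factors and of DREAM. MYBL1 encodes A-MYB, best known from male germ cells, and MYB encodes c-MYB, the remaining factor of the family.

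The arrays were one-colour Agilent arrays, and each value below is a log2 intensity, quantile-normalized across arrays separately at each time. A difference of 1 on this scale is a factor of 2 in intensity. The median spot intensity before normalization was 24.4 to 57.2 on the 24 h arrays, 20.4 to 32.2 on the 48 h arrays and 13.9 on the array left out. The 8 luminal and LNCaP markers, among them KLK3, were well above background on every array used. Of the other markers looked at, all 3 endothelial and all 3 leukocyte genes gave signal well above background on every 24 h array. Basal KRT5 did so on none at either time. Basal KRT14 did on 10 of 12 arrays at 24 h and 10 of 11 at 48 h, and TP63 on 7 of 12 and 1 of 11. Fibroblast COL1A1, COL3A1 and DCN did on 3, 1 and 2 arrays of 24 h and on 0, 0 and 11 of 48 h. The largest difference between group means of a non-luminal marker was 0.83 at 24 h (CD68) and 1.05 at 48 h (TP63, mostly not well above background). Among the luminal markers it was 0.83 at 24 h (TMPRSS2) and 1.07 at 48 h (KLK2). The part of these differences in the results was not tested. A probe for TAPIR-2 had a mean of 5.04 ± 0.20 (SD, n = 4) after si-SCRL, 4.64 ± 0.32 (n = 4) after si-A1 and 4.06 ± 0.74 (n = 4) after si-A2 at 24 h, where every si-A2 array lay below every control array. Of those si-A2 arrays 2 of 4 were well above background. At 48 h this probe was at 4.64 ± 0.58 (n = 4), 4.82 ± 0.81 (n = 4) and 4.68 ± 0.90 (n = 3), with overlapping groups. A second TAPIR-2 probe, found on the 48 h version, was well above background on no array used. No probe was matched to TAPIR-1, so its level was not checked on these arrays.

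FOXM1 (chromosome 12, 2857680 to 2877174, GRCh38.p14, probe A_23_P151150) was lower after both siRNAs on every array. At 24 h it was at 8.21, 8.08, 7.93 and 8.20 in the 4 si-SCRL replicates. After si-A1 it was at 7.30, 7.09, 6.99 and 7.0. After si-A2 it was at 7.15, 7.11, 6.74 and 7.0. Both siRNA groups thus lay below the lowest control, and they overlapped each other. In bulk RNA, fewer cells in late cell cycle and less mRNA per cell cannot be told apart. The log2 fold change was -1.01 (SE 0.23, 2.01-fold lower) for si-A1 with an adjusted p of 0.0293, and -1.11 (SE 0.23, 2.15-fold lower) for si-A2 with an adjusted p of 0.0182 (limma, Benjamini-Hochberg over 15186 genes). Neither passed, since a call needed an adjusted p below 0.01 together with a log2 fold change of 0.5 or more in either direction. Only genes whose interquartile range over the arrays reached 0.5 were tested. With that filter off and 36639 genes in the fit, the fold changes stood as they were, the SE was 0.13 and the adjusted p was 0.00151 for si-A1 and 0.000802 for si-A2. The exact two-sided permutation p over arrays was 0.0286 for each siRNA, the smallest that 4 against 4 arrays can give.

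**Figure D1:**
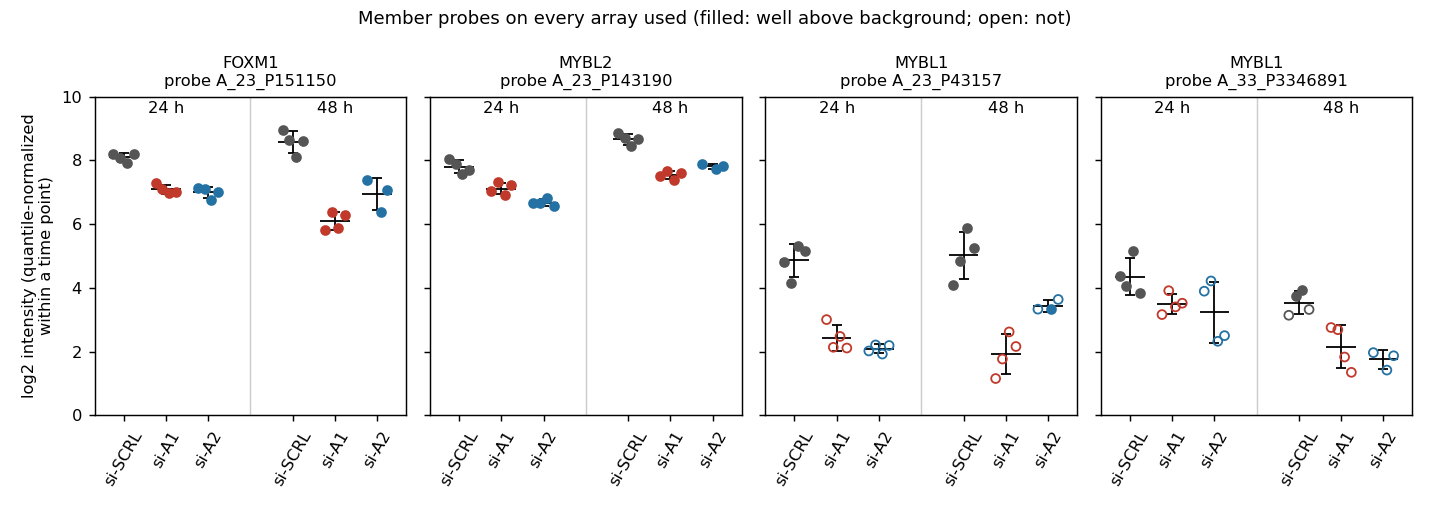
Log2 intensity (y axis, quantile-normalized within a time point) of the 4 member probes on each array used, by siRNA and time (x axis). Points are arrays in order of replicate number, lines and bars are mean and SD, and open points are arrays where the probe was not well above background. For FOXM1 and MYBL2 every si-A1 and si-A2 point lies below the lowest si-SCRL point of its time, while no si-A1 point of MYBL1 was well above background.

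At 48 h FOXM1 fell after si-A1. The si-SCRL replicates were at 8.94, 8.65, 8.10 and 8.60. The si-A1 replicates were at 5.82, 6.37, 5.89 and 6.28. The 3 si-A2 replicates used were at 7.37, 6.39 and 7.08, between the control and si-A1 arrays and without overlap with either, although the lowest si-A2 array was only just above the highest si-A1 array. The log2 fold change for si-A1 was -2.48 (SE 0.24, 5.58-fold lower, adjusted p 0.000178 by limma over 17462 genes). It was -1.57 (SE 0.26, 2.97-fold lower) for si-A2, with an adjusted p of 0.0182 that missed the threshold. The difference of si-A2 from si-A1 was 0.91 (95% interval 0.32 to 1.5), with an adjusted p of 0.0717 by limma. Within the 2 slides si-A1 differed from si-SCRL by -2.70 and -2.26, and si-A2 by -1.43 and -1.61. Each time had its own array version, so a change over time cannot be told apart from a difference between versions. The change between the times was tested as an interaction of siRNA and time on 23 arrays over the probes that both array versions carry. For si-A1 it was -1.5 (SE 0.25, 95% interval -2.03 to -0.97, adjusted p 0.00833 by limma), where 0.179% of the 30230 genes tested were called. The call was lost in most fits with 1 array fewer, holding in 5 of 23, where the value lay between -1.64 and -1.33. With si-A2 replicate 2 put back the value was -1.5 and the adjusted p 0.969. For si-A2 it was -0.47 (95% interval -1.02 to 0.08, adjusted p 0.766), where 0.0463% of genes were called.

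MYBL2 (chromosome 20, 43667114 to 43716482, GRCh38.p14, probe A_23_P143190) also stood lower after both siRNAs on every array. At 24 h the si-SCRL replicates were at 8.03, 7.90, 7.56 and 7.71. After si-A1 they were at 7.02, 7.31, 6.90 and 7.22, and after si-A2 at 6.65, 6.65, 6.83 and 6.55. The 3 groups did not overlap, with si-SCRL highest and si-A2 lowest. The log2 fold change was -0.68 (SE 0.24, adjusted p 0.177) for si-A1 and -1.13 (SE 0.24, 2.19-fold lower, adjusted p 0.0202) for si-A2 by limma, so neither passed. Without the interquartile filter the adjusted p was 0.035 and 0.00172, and si-A2 passed. The difference of si-A2 from si-A1 was -0.44 (95% interval -0.96 to 0.07, adjusted p 0.47 by limma).

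At 48 h the order of the siRNAs for MYBL2 was the other way round. The si-SCRL replicates were at 8.85, 8.69, 8.44 and 8.68. The si-A1 replicates were at 7.50, 7.66, 7.37 and 7.61, and the si-A2 replicates at 7.89, 7.73 and 7.83. The groups again did not overlap, with si-A1 now lowest. MYBL2 fell after si-A1 by 1.13 on the log2 scale (SE 0.14, 2.19-fold lower, adjusted p 0.000671 by limma). For si-A2 its log2 fold change was -0.83 (SE 0.15, 1.77-fold lower), with an adjusted p of 0.023 that missed the threshold and became 0.00846 without the interquartile filter. The difference of si-A2 from si-A1 was 0.31 (95% interval -0.03 to 0.65, adjusted p 0.287). The shift of that difference between the times was 0.75 (95% interval 0.40 to 1.1, adjusted p 0.0534 by limma), which did not pass either. The change of the si-A1 effect was -0.43 (95% interval -0.77 to -0.10, adjusted p 0.242) and that of the si-A2 effect 0.32 (95% interval -0.03 to 0.67, adjusted p 0.746).

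The promoters are shown because E2F factors act on MYBL2 through its promoter and late genes are commonly recognised by 2 other short elements. The 100 bases before the RefSeq start were taken from the RefSeq table of GRCh38.p14, which held MYBL2 and MYB but not FOXM1 or MYBL1, and CDC20 is added as a late gene whose profile was among the nearest to FOXM1. Capitals mark an E2F-type element GGCGGGA, the cell cycle homology region TTTGAA and the NF-Y box CCAAT, each searched on both strands.
MYBL2 (chr20:43667014-43667113, plus strand): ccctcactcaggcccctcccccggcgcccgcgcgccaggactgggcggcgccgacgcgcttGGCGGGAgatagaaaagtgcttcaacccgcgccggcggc
MYB (chr6:135181208-135181307, plus strand): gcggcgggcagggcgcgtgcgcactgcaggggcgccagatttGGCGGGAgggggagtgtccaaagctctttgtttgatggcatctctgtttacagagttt
CDC20 (chr1:43358881-43358980, plus strand): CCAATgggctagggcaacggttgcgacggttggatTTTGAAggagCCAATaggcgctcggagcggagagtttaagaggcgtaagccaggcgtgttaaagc
MYBL2 and MYB each held the E2F-type element once within 250 bases, beginning 39 and 58 bases before the start. Neither held TTTGAA or CCAAT in that window. CDC20 held TTTGAA 65 bases before its start, with CCAAT at 100 and 55, and a further TTTGAA on the other strand at 178. Among all 35116 promoters listed, 13.5% held GGCGGGA, 13.3% TTTGAA and 32% CCAAT in their 250 upstream bases. For the late cell cycle targets described further on, 37 of 44 genes matched with 46 promoters, of which 21.7%, 52.2% and 78.3% held the 3 elements. These are letter matches and not sites shown to be bound.

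MYBL1 was well above background in control cells and, after siRNA, on 1 array only. On probe A_23_P43157 the si-SCRL replicates at 24 h were at 4.82, 4.17, 5.32 and 5.15. After si-A1 they were at 3.01, 2.14, 2.48 and 2.11, and after si-A2 at 2.02, 2.21, 1.93 and 2.19. All 4 controls were well above background and none of the 8 siRNA arrays was, so the level after siRNA is only a bound. The intensity was at least 2.41-fold lower after si-A1 and at least 2.25-fold lower after si-A2, counted from the lowest signal well above background on each array. The fitted log2 fold changes were -2.43 and -2.77, with adjusted p of 0.00065 and 0.000269 by limma over all 44849 probes above the background threshold. In that fit of every probe 1.02% of probes were called lower for si-A1 and 0.838% for si-A2. The second probe, A_33_P3346891, had the higher mean over the arrays and so stood for the gene at 24 h. It was at 4.38, 4.05, 5.14 and 3.85 after si-SCRL. It was at 3.16, 3.91, 3.4 and 3.52 after si-A1, and at 3.9, 4.22, 2.33 and 2.5 after si-A2, with each siRNA group overlapping the control. Its log2 fold changes of -0.86 (SE 0.42, adjusted p 0.412) and -1.12 (SE 0.42, adjusted p 0.237) were not called by limma, and its bounds were at least 1.65-fold and at least 1.51-fold lower.

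At 48 h the probe A_23_P43157 was at 4.10, 4.85, 5.87 and 5.26 after si-SCRL. It was at 1.16, 1.77, 2.62 and 2.16 after si-A1, never well above background, and at 3.33, 3.33 and 3.64 after si-A2, where 1 of 3 arrays was. The 3 groups did not overlap. MYBL1 fell after si-A1 by at least 3.53-fold (fitted log2 fold change -3.09, SE 0.28, adjusted p 0.000131 by limma). For si-A2 its log2 fold change was -1.72 (SE 0.30, adjusted p 0.0208 by limma). No size is given for the difference between the siRNAs, since only 1 of these 7 arrays was well above background. On A_33_P3346891 the si-SCRL replicates were at 3.14, 3.74, 3.93 and 3.32, only 2 of them well above background. Its si-A1 replicates were at 2.76, 2.69, 1.83 and 1.35 and its si-A2 replicates at 1.97, 1.42 and 1.87. None of those 7 arrays was well above background. Counted from the mean of all 4 controls, the folds were 1.26 lower for si-A1 and 1.16 lower for si-A2. They are not strict bounds, since only 2 controls were well above background. The fitted log2 fold changes of -1.38 (adjusted p 0.0143) and -1.71 (adjusted p 0.0278) were not called in the fit of every probe by limma, where 3.98% of probes were called lower for si-A1 and 0.376% for si-A2. The change of effect from 24 h to 48 h on A_23_P43157 was -0.03 (95% interval -0.85 to 0.80, adjusted p 0.987) for si-A1 and 1.49 (95% interval 0.63 to 2.36, adjusted p 0.294) for si-A2 by limma. With 1 array left out these 2 values ranged from -0.21 to 0.23 and from -0.25 to 1.75, partly because the other probe stood for the gene in some of these fits, and they rest on siRNA arrays of which 1 was well above background, so no direction is read from them.

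**Figure D2:**
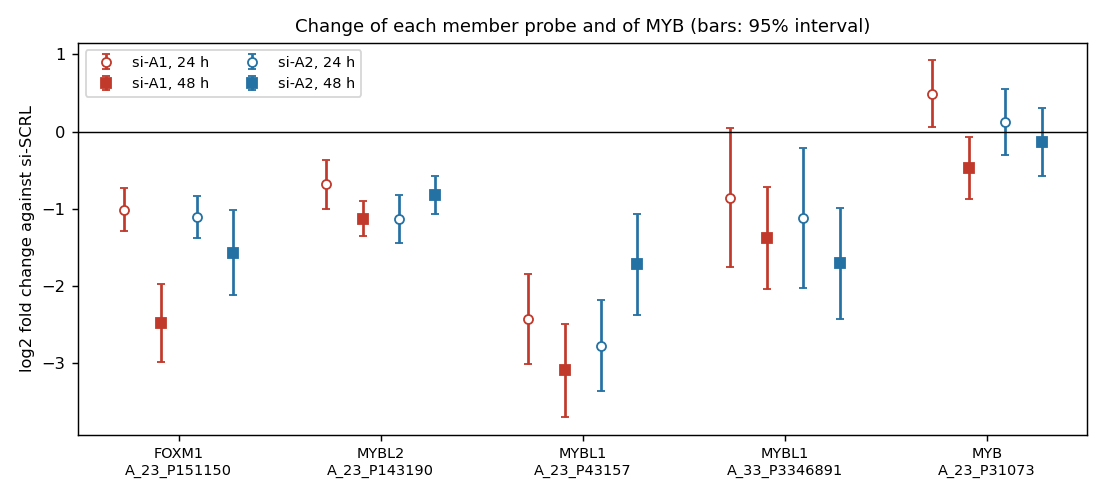
Log2 fold change against si-SCRL (y axis) of the 4 member probes and of MYB (x axis), from the fit of every probe above the background threshold without the interquartile filter. Circles are 24 h, squares 48 h, red si-A1, blue si-A2, and bars are 95% intervals. Each time had its own array version. The FOXM1 estimate for si-A1 moves from -1.01 at 24 h to -2.48 at 48 h, and the MYB estimates lie between -0.47 and 0.49. MYBL1 symbols are fitted values against siRNA arrays mostly not well above background, whose sizes are given as bounds in the text where the controls and the separation of the groups allow it.

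MYB, the remaining factor of the family, was not called at either time. At 24 h its replicates were at 5.59, 6.12, 5.67 and 6.06 after si-SCRL, at 6.58, 6.37, 6.42 and 6.04 after si-A1 and at 6.14, 5.81, 5.69 and 6.29 after si-A2, with si-SCRL overlapping both siRNA groups. The log2 fold changes were 0.49 (95% interval -0.08 to 1.07, adjusted p 0.458) and 0.12 (95% interval -0.45 to 0.70, adjusted p 0.895) by limma. Without the interquartile filter the 95% intervals were 0.06 to 0.92 (adjusted p 0.318) and -0.30 to 0.55 (adjusted p 0.855) by limma. At 48 h its interquartile range was 0.43, so it was not tested with the filter, and without it the log2 fold changes were -0.47 (95% interval -0.87 to -0.07, adjusted p 0.117) and -0.13 (95% interval -0.57 to 0.31, adjusted p 0.79) by limma, though the 4 si-A1 arrays all lay below the 4 control arrays. The change of the si-A1 effect on MYB from 24 h to 48 h was -0.95 (95% interval -1.51 to -0.39, adjusted p 0.11 by limma). That of the si-A2 effect was -0.23 (95% interval -0.82 to 0.35, adjusted p 0.91 by limma), and neither was called. The difference between MYB and the members was not tested.

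Counted over the 3 members, none was called for si-A1 or si-A2 at 24 h by limma, where 1.38% of genes were called lower for either siRNA. At an unadjusted p below 0.05 the counts were 2 of 3 for si-A1 and 3 of 3 for si-A2, where 9.09% and 8.26% of all genes tested were lower at that p. Without the interquartile filter 1 of 3 was called for si-A1, against 0.958% of genes, and 2 of 3 for si-A2, against 0.827%. At 48 h all 3 were called lower for si-A1, where 6.31% of genes were, and 3.66% without the filter. For si-A2 at 48 h none was called by limma, where 0.189% of genes were called lower, and all 3 had an unadjusted p below 0.05, where 9.69% of all genes were lower at that p. Without the filter 1 of 3, MYBL2, was called there, against 0.379%. None differed between si-A2 and si-A1 at 24 h or 48 h by the same rule, where 0.112% and 1.62% of genes did. At an unadjusted p below 0.05 in limma 0 of 3 differed at 24 h and 2 of 3 at 48 h, where 13% and 21.7% of genes did in either direction. With si-A2 replicate 2 put back at 48 h, none of the 3 calls for si-A1 remained, as the adjusted p rose to between 0.0237 and 0.25.

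The late cell cycle genes that B-MYB with MuvB and FOXM1 activate were looked at as 44 genes, all present on both array versions. At 24 h 42 of them were tested, and 12 fell after si-A1 and 20 after si-A2 by limma, against the same 1.38% of all genes. Their median log2 fold change was -1.31 for si-A1 and -1.48 for si-A2, beside a median of 0.02 over all genes tested in each case, and none rose. With genes that were well above background on no array of a group set at their bound, the medians were -1.20 and -1.36. Without the interquartile filter 26 and 27 were called lower, against 0.958% and 0.827% of all genes. Among those that fell after si-A2 at 24 h, KIF14, a kinesin of cytokinesis, was well above background on 0 of 4 si-A2 arrays and at least 4.5-fold lower (adjusted p 0.000448 by limma). TTK, a spindle checkpoint kinase, was at least 5.96-fold lower after si-A2, again with 0 of 4 arrays well above background, and had a log2 fold change of -2.66 for si-A1, where 2 of 4 were. ANLN, the cleavage furrow protein anillin, was at -3.28 and -2.58, with 2 of 4 arrays well above background in each siRNA group. BUB1B, which encodes the checkpoint protein BUBR1, was at -1.94 and -2.26. TOP2A, a topoisomerase that untangles chromosomes, was at -1.67 and -1.89. All 5 passed for both siRNAs but KIF14, whose -1.72 for si-A1 did not (adjusted p 0.0182 by limma). BIRC5, which encodes survivin, was at 9.37 ± 0.05 (SD, n = 4) in control cells, 7.30 ± 0.18 (n = 4) after si-A1 and 7.48 ± 0.08 (n = 4) after si-A2.

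At 48 h 39 of 43 late genes tested fell after si-A1, against 6.31% of all genes, with a median log2 fold change of -2.74 beside 0.11 over all genes tested. With 8 of them at their bound the median was -2.37. Of the 43, 41 were below 0 and none was called higher. CCNB1 stood at 12.64 ± 0.62 (SD, n = 4) after si-A1 against 11.81 ± 0.30 (n = 4) in control cells. It was read there on another probe than at 24 h, where it was at -0.71 for si-A1. TROAP stood at 8.48 ± 0.59 (n = 4) against 8.21 ± 0.37 (n = 4). BIRC5 reached -3.72 (SE 0.30, adjusted p 8.38e-05 by limma). ANLN stood at -5.14 (SE 0.46, adjusted p 0.00012 by limma), a value that rests on 1 of 4 si-A1 arrays well above background. TTK was well above background on none of those 4 and was at least 7.7-fold lower (adjusted p 7.14e-05 by limma). After si-A2 the median was -1.57, or -1.5 with 3 genes at their bound, and 41 of 43 were below 0, yet only 6 were called (AURKA, CENPA, KIF20A, PRC1, TPX2 and PTTG1, named after their values were seen, CENPA with no si-A2 array well above background), against 0.189% of all genes. That count of 6 became 0 in limma fits without any one of the 11 arrays or with the replicate number as a block, where 39 still had an unadjusted p below 0.05 under the block, against 9.35% of all genes. The number of late genes called for si-A1 stayed between 33 and 39 with any array left out. At 24 h it lay between 4 and 8 for si-A1 and between 7 and 19 for si-A2. With si-A2 replicate 2 put back, 0 late genes were called for either siRNA at 48 h, while 37 for si-A1 and 35 for si-A2 had an unadjusted p below 0.05 in limma, against 3.81% and 5.62% of all genes. Comparing the siRNAs at 48 h, 4 late genes stood higher in si-A2 than in si-A1 cells, against 1.62% of genes called in either direction. They were TTK, ANLN, CKS2 and TOP2A, named after their values were seen, of which TTK and CKS2 were well above background on no si-A1 array and ANLN on 1.

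**Figure D3:**
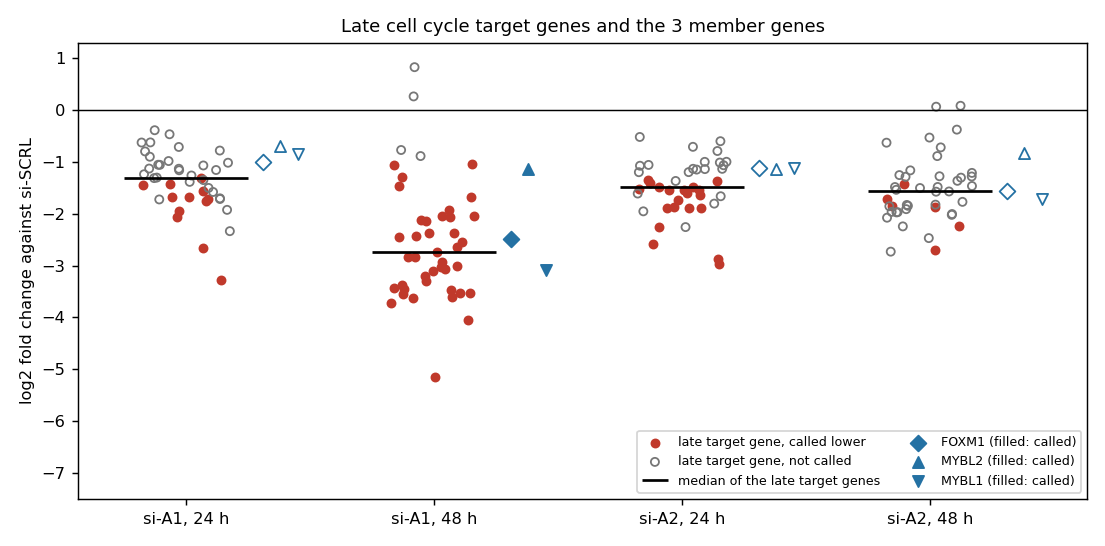
Log2 fold change against si-SCRL (y axis) of each late cell cycle target gene tested, by siRNA and time (x axis), each time on its own array version. Red points were called lower, open points were not, lines are medians, and blue symbols are the members. The median moves from -1.31 to -2.74 between 24 h and 48 h for si-A1 and from -1.48 to -1.57 for si-A2, and for si-A1 the FOXM1 symbol lies above the median at both times. All points are fitted values, also where a group was not well above background, and CCNB1 is on a different probe at each time.

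Of the 11 MuvB core and DREAM partner genes, none was called at 24 h by limma with 8 tested, and the median log2 fold change of those 8 was -0.26 for si-A1 and -0.59 for si-A2, or -0.52 with 1 gene at its bound. Over all 11, without the interquartile filter, it was 0.11 and -0.22. At an unadjusted p below 0.05 in limma 3 of the 8 were lower and 1 higher for si-A1, and 4 were lower and 1 higher for si-A2, where 9.09% and 8.26% of all genes were lower. Without the interquartile filter 1 was called higher for si-A1 (E2F5, 1.16) and 1 lower for si-A2 (RBL1, -0.94). At 48 h 2 of 6 tested fell after si-A1, against 6.31% of all genes, namely RBBP4, a histone-binding MuvB subunit (-0.73, adjusted p 0.00751), and TFDP1, the E2F partner DP1 (-1.54, adjusted p 0.000198), all 4 named after their values were seen. The brightest RBBP4 probe, used without the filter, was not called. None was called after si-A2 at 48 h by limma, where 2 of 6 were lower at an unadjusted p below 0.05, against 9.69% of all genes. The median of the 6 at 48 h was -0.60 for si-A1 and -0.23 for si-A2, and over all 11 genes -0.08 and -0.15. Whether these partners differ from the late targets was not tested.

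Of the 11 kinases, cyclins and other proteins that act on FOXM1 or B-MYB, 8 were tested at 24 h, and 5 fell after si-A1 and 3 after si-A2, against 1.38% of all genes for either. The median over all 11 was -1.31 and -1.16. CDK1, the kinase of mitotic entry, fell for both, with log2 fold changes of -2.41 and -2.27. CCNA2, cyclin A2, whose kinase complexes phosphorylate both factors, fell likewise, at -1.36 and -1.53. CCNE2, cyclin E2, fell too, at -1.56 and -1.82. CDK2 fell by 1.59 after si-A1, with an adjusted p of 0.00914, and its value for si-A2 was -1.21 with an adjusted p of 0.0481 by limma. CCND1, cyclin D1, fell by 1.84 after si-A1 and stood at -1.22 after si-A2 with an adjusted p of 0.0146. At 48 h 5 passed the interquartile filter, and those 5 were called lower for si-A1, against 6.31% of all genes, with a median of -2.74. None of the 5 was called for si-A2 by limma, with a median of -0.80. All 5 were lower at an unadjusted p below 0.05 in limma, against 9.69% of all genes. Over the 9 above the background threshold the medians were -1.57 and -0.71. Without the interquartile filter 5 and 1 of them were called lower, against 3.66% and 0.379% of all genes. PLK1, a kinase that docks on both factors, stood at -1.31 and -1.16 at 24 h (adjusted p 0.021 and 0.0442) and no 48 h probe was matched to it.

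Upstream of the members 7 E2F and p53-p21 genes were looked at, of which 6 were tested at 24 h. For each siRNA 2 were called lower by limma, against 1.38% of all genes, and 1 was called higher for si-A2. The median log2 fold change of the 6 was -1.14 for si-A1 and -0.58 for si-A2. With genes at their bound it was -0.56 and -0.09. The activator genes E2F1 and E2F2 were those that fell at 24 h after both siRNAs. E2F1 was at 8.30 ± 0.27 (SD, n = 4) after si-SCRL, 5.83 ± 0.29 (n = 4) after si-A1 and 5.06 ± 0.24 (n = 4) after si-A2, with adjusted p of 0.00025 and 3.22e-05 by limma. E2F2 had a log2 fold change of -2.21 for si-A1, with 2 of 4 arrays well above background, and was at least 5.51-fold lower after si-A2, where none was (adjusted p 0.00197 and 8.39e-05 by limma). CDKN1A, which encodes the CDK inhibitor p21, was at 10.84 ± 0.12 (SD, n = 4) after si-SCRL, 11.52 ± 0.11 (n = 4) after si-A1 and 12.64 ± 0.28 (n = 4) after si-A2. The difference of 1.79 for si-A2 was called (adjusted p 0.00086) and that of 0.68 after si-A1 was not (adjusted p 0.193). Of all genes 0.0329% were called higher for si-A2 at 24 h and 0.0461% for si-A1. At 48 h CDKN1A rose by 2.10 after si-A1 (adjusted p 0.000167), where 2.51% of genes were called higher. Its value after si-A2 was 1.21 with an adjusted p of 0.0227, and 0.0458% of genes were called higher there. E2F1 and E2F2 fell after si-A1 at 48 h, E2F1 at -2.69 and E2F2 by at least 6.2-fold (adjusted p 0.000118 by limma), with no si-A1 array well above background for E2F2. They were at -1.33 and -1.04 after si-A2, with adjusted p of 0.0344 and 0.187 by limma. In si-A2 cells E2F2 was at least 2.88-fold above si-A1 cells there (adjusted p 0.00518 by limma). Of the 5 upstream genes tested at 48 h, 3 were called lower for si-A1, against 6.31% of all genes, and 1 higher. None was called for si-A2, where 0.189% of genes were called lower.

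**Figure D4:**
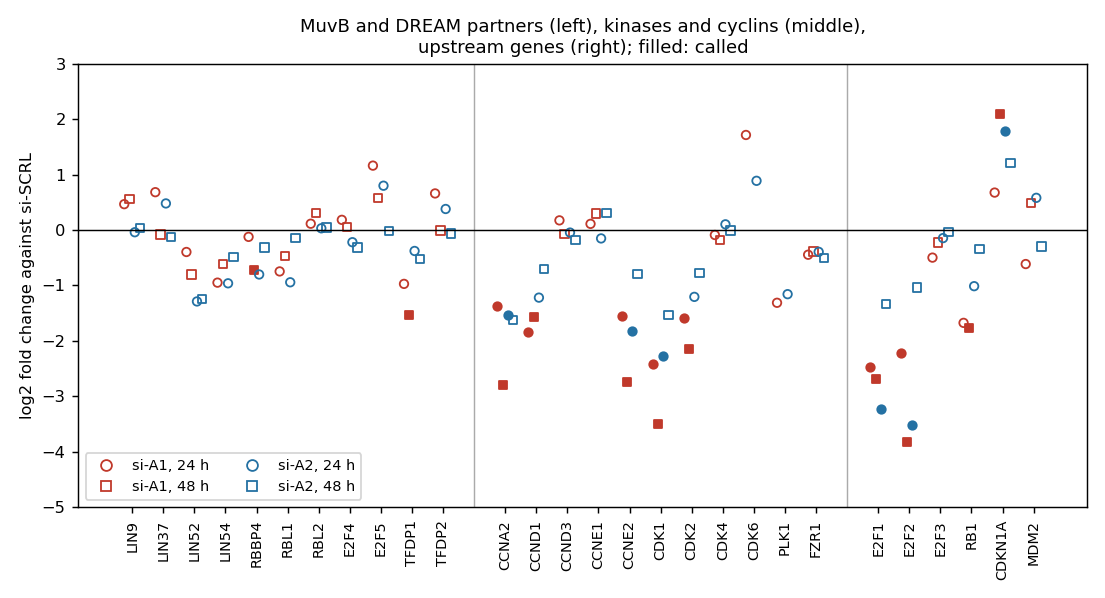
Log2 fold change against si-SCRL (y axis) of the MuvB and DREAM partner genes, the kinases and cyclins and 6 of the 7 upstream genes (x axis). Circles are 24 h, squares 48 h, red si-A1, blue si-A2, and filled symbols were called. E2F1, CDK1, CCNE2 and CCNA2 reach -2.69 or lower at 48 h after si-A1, CDKN1A lies highest, and no DREAM partner was called at 24 h. All symbols are fitted values, also where a group was not well above background. Neither E2F2 nor RB1 was well above background on any si-A1 array of 48 h. At 24 h CDK6 was so on no si-SCRL array and LIN54 on no siRNA array.

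The genes whose profile over the 12 arrays of 24 h lay nearest to each member were found among 16350 genes, by the root mean square difference after each profile was set to its own si-SCRL mean. Points of these profiles share arrays and controls, so this is a description. For FOXM1 they were MASTL (0.14), CDC20 (0.168) and KIF20A (0.173), which encode the Greatwall kinase, an activator of the anaphase-promoting complex and a kinesin of cytokinesis. At 48 h MASTL was at 0.718 and KIF20A at 0.528, while CDC20 was at 0.301, with log2 fold changes of -2.37 and -1.48 beside -2.48 and -1.57 for FOXM1. For MYBL2 they were RBL1 (0.18), DDX11 (0.181) and UHRF1 (0.186), which encode the pocket protein p107, a helicase of chromatid cohesion and a maintenance factor of DNA methylation. At 48 h DDX11 stood at 0.184, UHRF1 at 0.269 and RBL1 at 0.562. For MYBL1, on probe A_33_P3346891, they were FANCE at 0.383, KIF18B at 0.442 and ECT2 at 0.452. At 48 h, where the other probe stood for MYBL1, the same 3 were at 1.86, 0.933 and 0.941. On A_33_P3346891 no siRNA array of 24 h was well above background, so no likeness is read from these 3 genes.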

How the data were processed

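LNCaP cells were profiled on 24 one-colour Agilent SurePrint G3 arrays of 2 versions, 1 for each time point, and grouped from the labels. The authors deposited scans read with Agilent Feature Extraction 11.5.1.1, whose processed intensity is background-subtracted and detrended within an array but not normalized between arrays. The authors also deposited log2 values per time point, used here as an alternative, whose columns share 1 distribution within 0.219 and order the spots as the processed intensity does. The submitters' processing notes name R 3.4.3, limma 3.34.8 and hg38.

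Intensities were log2-transformed and quantile-normalized over the 12 arrays of 24 h and 11 of 48 h, outlier spots were left out and repeated spots averaged. Probes entered the test when 3 or more arrays exceeded a background limit (mean plus 3 SD of 308 negative control spots) and the interquartile range reached 0.5. The authors' removal of probes with several genomic matches was not redone. The brightest such probe stood for a gene, 57.4% of 24 h probes and 53.4% of 48 h probes being named through RefSeq accessions and the rest by the array design. In R 4.3.3 with limma 3.58.1 and statmod 1.5.0, the 3 groups of each time were fitted jointly, slide being an additive covariate, and Benjamini-Hochberg adjustment ran over all genes tested. Calls required adjusted p under 0.01 plus a log2 fold change of 0.5 in size, or the adjusted p alone for the interaction of siRNA and time. Intervals are 95%. Time and array version are the same split, so each effect was taken within a version. A change of effect from 24 h to 48 h cannot be told apart from a difference between the versions. The fits were tested on simulated data.

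For groups in which no array measured a probe well above background, a fold is a lower bound against, per array, the higher of its own value and the lowest signal well above background. Where some arrays of the brighter group were not well above background either, the fold is not a strict bound. Bounds are counted from group means and make no allowance for the spread between arrays. Same-numbered samples of 48 h deviated together (r from 0.188 to 0.348 over 10 pairs, all over 0.1), though they also share a slide. Those of 24 h did not (r from -0.146 to 0.186 over 12 pairs). The main fits carried slide and no pairing at either time. Pairing by replicate number entered only as a block among the alternatives. Alternatives were 75th percentile scaling, normexp with offset 50, run on median spot signals because mean signals were not among the columns, the authors' values, other slide terms, the replicate number as a block, fits of the 2 groups alone, other filters, every probe, an absolute log2 fold change of 1 and each array left out. The members, gene lists and rule for named genes were chosen with earlier results of these data known. The rule names the members, MYB, up to 6 genes per list with the largest log2 fold change after si-A2 at 24 h among those called at 24 h, list genes called against their list, and the 3 nearest profiles per member; list genes beyond it were named after their values were seen. Single results on 2 list genes are not reported here.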

Additional observations from a re-analysis of the deposited data

Results flagged for a closer look

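The FOXM1 effect of si-A1 differed between the times, and so between the array versions, by the interaction test. It was -1.5 on the log2 scale from 24 h to 48 h (adjusted p 0.00833 by limma over 30230 genes), with all 4 si-A1 arrays below all 4 control arrays at each time. It passed in 5 of 23 fits with 1 array left out, with values from -1.64 to -1.33. With si-A2 replicate 2 of 48 h in the fit the value was -1.5 as well, with an adjusted p of 0.969. In 20 groups of 4 arrays looked at for a member probe that stood far from the rest, 0 were found, where chance gives about 1 in 20.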

How the results depend on the processing

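Over 667 values under alternatives, 571 kept their direction and side of the threshold or, for counts, stayed within 1.5 times the count reported. Under normexp the FOXM1 values of 24 h were -0.79 and -0.82 and the MYBL2 value for si-A2 -0.75, and at 48 h those for si-A2 were -1.15 (FOXM1) and -0.72 (MYBL2), all then called. The filter on signal well above background, and for the first 3 and MYBL2 also the absence of the interquartile filter, called the same results at -1.01, -1.11, -1.13, -1.57 and -0.83, and with the former MYBL1 after si-A2 at 48 h (-1.72). Testing every probe called MYBL1 at 24 h on A_23_P43157 (-2.43 and -2.77) and lost it for si-A1 at 48 h on A_33_P3346891 (-1.38). On that probe si-A2 minus si-A1 at 48 h was -0.33 and the change of the si-A2 effect -0.13, the other sign, but no siRNA array there was well above background, so no direction is read from either. With all 12 arrays of 48 h no call remained for si-A1, at -2.49 (FOXM1), -1.15 (MYBL2) and -3.01 (MYBL1), nor for the FOXM1 change over time at -1.5. Late genes called after si-A1 at 24 h were 29 under normexp, 7 with the replicate block, 3 with only the groups compared, 26 without the interquartile filter and 30 with the well above background filter. After si-A2 at 24 h they were 12 with the block and 7 with only the groups compared. After si-A2 at 48 h they were 28 under normexp, 12 without the interquartile filter, 24 with the well above background filter, and 0 without a slide term, with the replicate block, with only the groups compared or with all 12 arrays, and the last gave 0 for si-A1 too. At these counts of 0, 38, 39, 39, 35 and 37 late genes had an unadjusted p below 0.05 in limma, against 7.5%, 9.35%, 11.6%, 5.62% and 3.81% of all genes. Leaving out 1 array gave at 24 h 4 to 8 late genes (si-A1) or 7 to 19 (si-A2), at 48 h 33 to 39 (si-A1), and 0 in each case for si-A2 at 48 h. For the change over time, where leaving out 1 array was chosen after seeing the data, FOXM1 for si-A1 lay at -1.64 to -1.33 and passed in 5 of 23 fits, and MYBL1 lay at -0.21 to 0.23 (si-A1) and -0.25 to 1.75 (si-A2). The replicate block changed no call of a member gene, and in the 24 h fits, whose numbers did not pair the samples, FOXM1 stood at adjusted p 0.0599 and 0.0423 with it. The causes of these changes were not tested. The dim MYBL1 probes limit its size to bounds, and 3 to 4 arrays a group limit every value.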
